A study of Homo sapiens with 6 samples.

Results

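The genes described here are the structural and regulatory components of the splicing machinery whose symbols begin with SRSF, HNRNP, SF3A, SF3B, PRPF, SNRP or U2AF. The rule for choosing them went by symbol and used no measured value, but earlier results of these data were known. They number 71 of the 16306 genes in the deposited gene table, with 383 of the 76563 transcripts in the transcript table. Their mRNA was measured by RNA-seq in PC9 cells, an established line from a human lung adenocarcinoma whose EGFR gene carries an activating deletion. The comparison was between 3 libraries carrying a negative control shRNA (sh-NC, replicates 1, 2 and 3) and 3 carrying an shRNA against RBM10 (shRBM10). All libraries come from a single cell line, and the labels do not say which RBM10 shRNA was used or whether replicates came from separate cultures, so p-values may measure only technical spread. The shRBM10 libraries are called A, B and C because a replicate number could be matched to A only.

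Introns are removed by the spliceosome, which is assembled from small nuclear ribonucleoproteins (snRNPs). The U2AF heterodimer reads the end of the intron, the SF3a and SF3b complexes of the U2 snRNP hold the branch point, and PRPF proteins act in the tri-snRNP and in the later catalytic steps. SR proteins mostly promote and hnRNPs often repress the use of nearby exons, and many genes of both families limit their own level through transcripts that carry a premature stop codon. RBM10 is an RNA-binding protein that associates with spliceosomal complexes and promotes skipping of many exons. The question of the comparison is which of these genes differ in level or in transcript make-up when RBM10 is lowered.

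RBM10 itself was measured first. Its normalized level was 77.9, 64.4 and 79.96 counts for every 1e6 (CPM) in sh-NC replicates 1, 2 and 3 and 29.2, 28 and 36.6 CPM in shRBM10 libraries A, B and C. All shRBM10 libraries lay below all sh-NC libraries. The log2 fold change was -1.24 ± 0.23 (SE, n = 3 per group), with an adjusted p of 0.10 in edgeR's quasi-likelihood test and of 0.0015 in DESeq2.

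Libraries held 16606401 to 18864241 counts on genes. The sh-NC replicate 2 stood apart from the other controls: over the splicing genes its median absolute log2 difference was 0.53 from replicate 1 and 0.44 from replicate 3, while replicates 1 and 3 differed by 0.060. Library C was nearer to the controls than A or B, at 0.19 from both replicate 1 and replicate 3. The protocol text of the labels mentions retinas, but the 4 of 7 retina markers in the table reached at most 0.17 CPM in any library. All 7 epithelial markers were above 1 CPM in at least 1 library. Of 6 leukocyte and stroma markers, 3 were above 1 CPM in at least 1 library, at most 9.67 CPM.

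Of the 71 genes, 69 had enough counts to be tested. HNRNPCL4 and SNRPN were at or near 0 and were left out. No splicing gene passed an adjusted p of 0.05 with an absolute log2 fold change over 1 in edgeR, where 0.0158% of all 12620 genes tested did. DESeq2 called 2 of them, U2AF2 (adjusted p = 0.019) and SF3B1 (adjusted p = 0.030), against 4.72% of genes, and limma-voom called 0. At an unadjusted p under 0.05 in edgeR, 7 splicing genes were higher in shRBM10, against 15.7% of all genes, and 8 were lower, against 8.6%. In either direction these 15 genes were 21.7% of the splicing genes, beside 24.3% of all genes, so the share was near the background. Levels were apart between sh-NC and shRBM10 in 22 of the 69, 3 higher and 19 lower, against 30.1% of all genes in either direction, 13.8% higher and 16.2% lower.

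**Figure D1:**
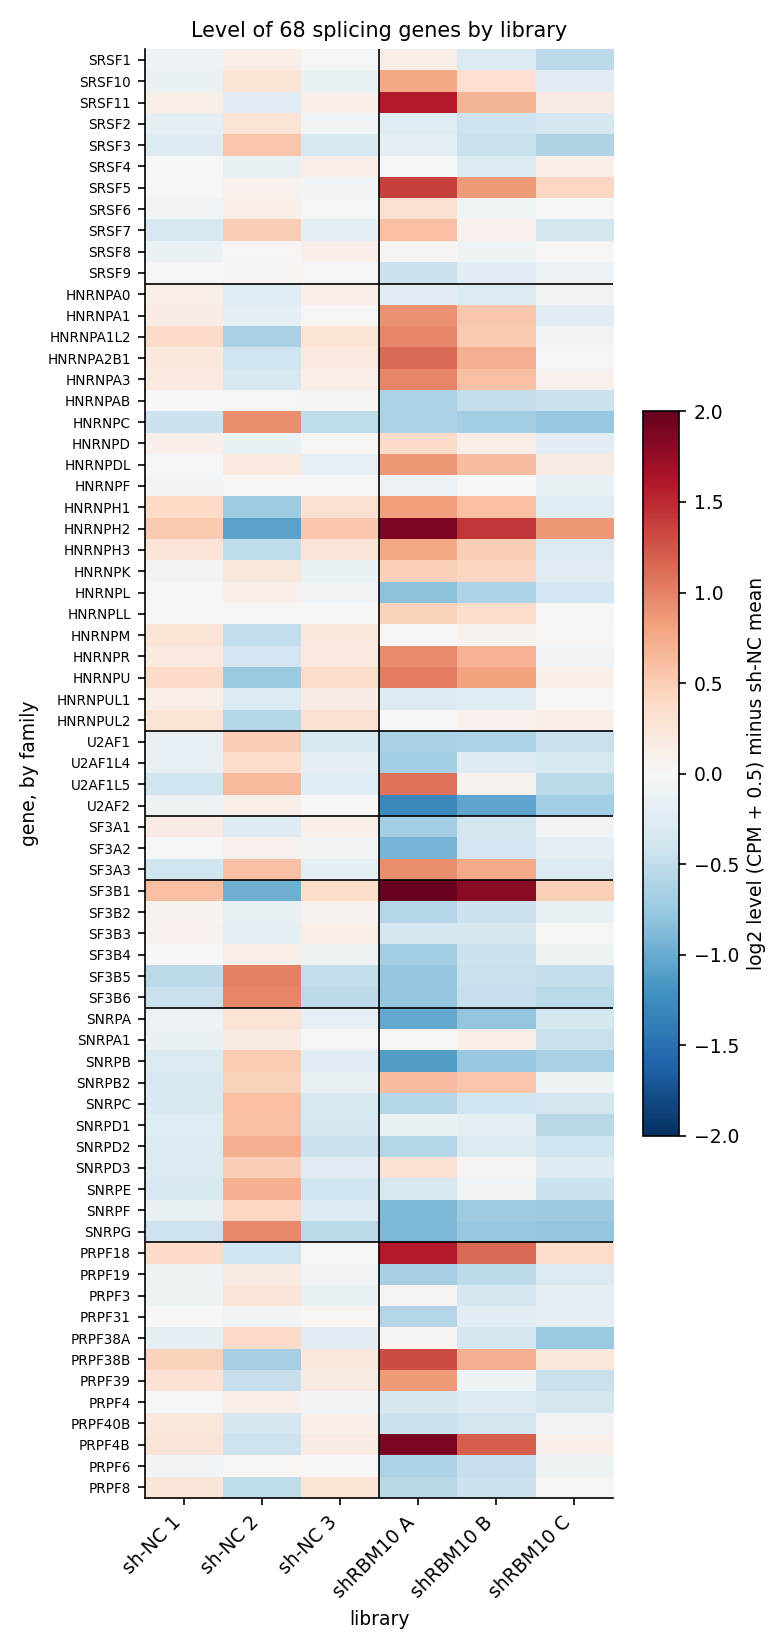
Level of 68 of the 69 tested genes (rows, by family) in each library (columns), as log2 of CPM plus 0.5 minus the mean of the 3 sh-NC libraries. Library A lies farthest from the sh-NC mean for 53 of the 69 genes among the shRBM10 libraries, and the SNRP rows are high in sh-NC replicate 2.

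Over the 69 genes the log2 fold changes had a median of -0.16, against 0.03 over all genes tested, and 29 of the 69 were higher in shRBM10. When counts were scaled by library size only, the median of all genes moved to 0.16 and that of the splicing genes to -0.0015. By family, the median was -0.54 for the 4 U2AF genes, -0.51 for the 11 tested SNRP genes, -0.38 for the 6 SF3b genes, -0.36 for the 3 SF3a genes and -0.31 for the 13 PRPF genes. It was 0.29 for the 21 tested hnRNP genes and -0.01 for the 11 SR protein genes, and the latter became 0.12 with library size scaling. Without sh-NC replicate 2 the median moved to -0.15 for the SNRP genes, 0.06 for the hnRNP genes, -0.20 for the PRPF genes and -0.08 for the SR protein genes. Without library A it was 0.14 for the hnRNP genes and -0.23 for the SF3a genes. With the trend of fold change on GC content removed, the medians were -0.28 for U2AF, -0.39 for SNRP, -0.19 for SF3b, -0.04 for SF3a, -0.05 for PRPF, 0.10 for hnRNP and -0.16 for SR protein genes.

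The U2AF dimer had the splicing gene with the smallest p. U2AF2 (chr19:55655035-55674716, GRCh38) encodes the large subunit, which binds the polypyrimidine tract. Its level was 795, 923 and 848 CPM in sh-NC and 350, 410 and 534 CPM in shRBM10. Every shRBM10 library was below every control, with a log2 fold change of -0.99 ± 0.26 (SE) and an adjusted p of 0.15 in edgeR. Its unadjusted p was 0.0037, and it was under 0.05 in all 15 fits made. In bulk libraries, fewer cells of a kind and less RNA per cell cannot be told apart. U2AF1 encodes the small subunit, which contacts the AG at the intron's end. It measured 144, 228 and 129 CPM in sh-NC and 103, 104 and 119 CPM in shRBM10, with a log2 fold change of -0.62 ± 0.26 (SE) and an adjusted p of 0.19. The groups were apart, with sh-NC replicate 2 far above the other libraries, and the log2 fold change was -0.41 without it. U2AF1L5 is a near-identical copy of U2AF1 and shares reads with it, so the division between them is uncertain. U2AF1L5 was at 0.31 to 2.01 CPM throughout.

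SF3B1 (chr2:197389784-197435093) encodes the SF3b subunit that holds the branch point and is often mutated in blood cancers. It measured 49.1, 15.9 and 41.6 CPM in sh-NC and 176, 113 and 44.5 CPM in shRBM10. Library C lay between the controls, so the groups overlapped, and the log2 fold change was 1.64 ± 0.52 (SE) with an adjusted p of 0.16 in edgeR. Without sh-NC replicate 2 it was 1.20. The other 5 SF3b genes had log2 fold changes from -0.77 to -0.22, and none reached an unadjusted p of 0.05. SF3B5 and SF3B6, the small subunits, were high in sh-NC replicate 2 alone: SF3B6 was at 109, 293 and 103 CPM in sh-NC and at 86.6, 108 and 102 CPM in shRBM10. In the SF3a complex, SF3A2 had an unadjusted p of 0.090 and groups that did not overlap (70.7 to 78.5 CPM in sh-NC, 38.3 to 65.2 CPM in shRBM10).

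The SNRP genes encode proteins of the snRNPs, and 7 of them form the Sm ring that encircles most of the spliceosomal snRNAs. Per unit length, they hold the top of the levels: by the authors' mean TPM in sh-NC, SNRPD2 (1343), SNRPB (819) and SNRPG (756) were the highest of the 71 genes. In the CPM of the libraries all 7 Sm genes were highest, among controls, in sh-NC replicate 2. SNRPB measured 487, 845 and 505 CPM in sh-NC and 273, 349 and 378 CPM in shRBM10, a log2 fold change of -0.88 ± 0.29 (SE). SNRPF measured 95.3, 141 and 88.9 CPM in sh-NC and 56.6, 64.9 and 64.3 CPM in shRBM10, a log2 fold change of -0.81 ± 0.24 (SE). In both genes all shRBM10 libraries lay below all controls, with adjusted p of 0.16 and 0.15 in edgeR. SNRPG measured 171, 443 and 157 CPM in sh-NC and 122, 135 and 132 CPM in shRBM10. Its log2 fold change was -0.99 ± 0.38 (SE), and -0.42 without sh-NC replicate 2, with an unadjusted p of 0.027. SNRPA, the U1 snRNP protein A, measured 136, 178 and 131 CPM in sh-NC and 72.1, 84.9 and 115 CPM in shRBM10, with an unadjusted p of 0.019 and an adjusted p of 0.17. The other Sm genes had unadjusted p of 0.14 or more, and SNRPD3 had a log2 fold change of 0.00059 ± 0.27 (SE).

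Among the 11 SR protein genes, 2 had an unadjusted p under 0.05, both higher in shRBM10. SRSF5 measured 55.5, 60.1 and 54.8 CPM in sh-NC and 147, 103 and 76.0 CPM in shRBM10. SRSF11 measured 29.3, 22.9 and 28.9 CPM in sh-NC and 81.5, 43.3 and 30.01 CPM in shRBM10. In both genes the groups did not overlap, although library C of SRSF11 lay next to the highest control. The log2 fold changes were 0.93 ± 0.27 (SE) for SRSF5 and 0.93 ± 0.35 (SE) for SRSF11, with edgeR adjusted p of 0.15 and 0.17. Without library A they were 0.65 for SRSF5 and 0.44 for SRSF11, the latter with an unadjusted p of 0.17. SRSF2 (-0.35) and SRSF9 (-0.25) had groups that were apart and lower in shRBM10, with unadjusted p of 0.14 and 0.27. The other 7 had log2 fold changes between -0.46 (SRSF3, 267, 471 and 258 CPM in sh-NC, 279, 234 and 210 CPM in shRBM10) and 0.35 (SRSF10). SRSF1 was -0.21, SRSF4 -0.05, SRSF6 0.09, SRSF7 0.11 and SRSF8 -0.01, each with unadjusted p over 0.25.

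**Figure D2:**
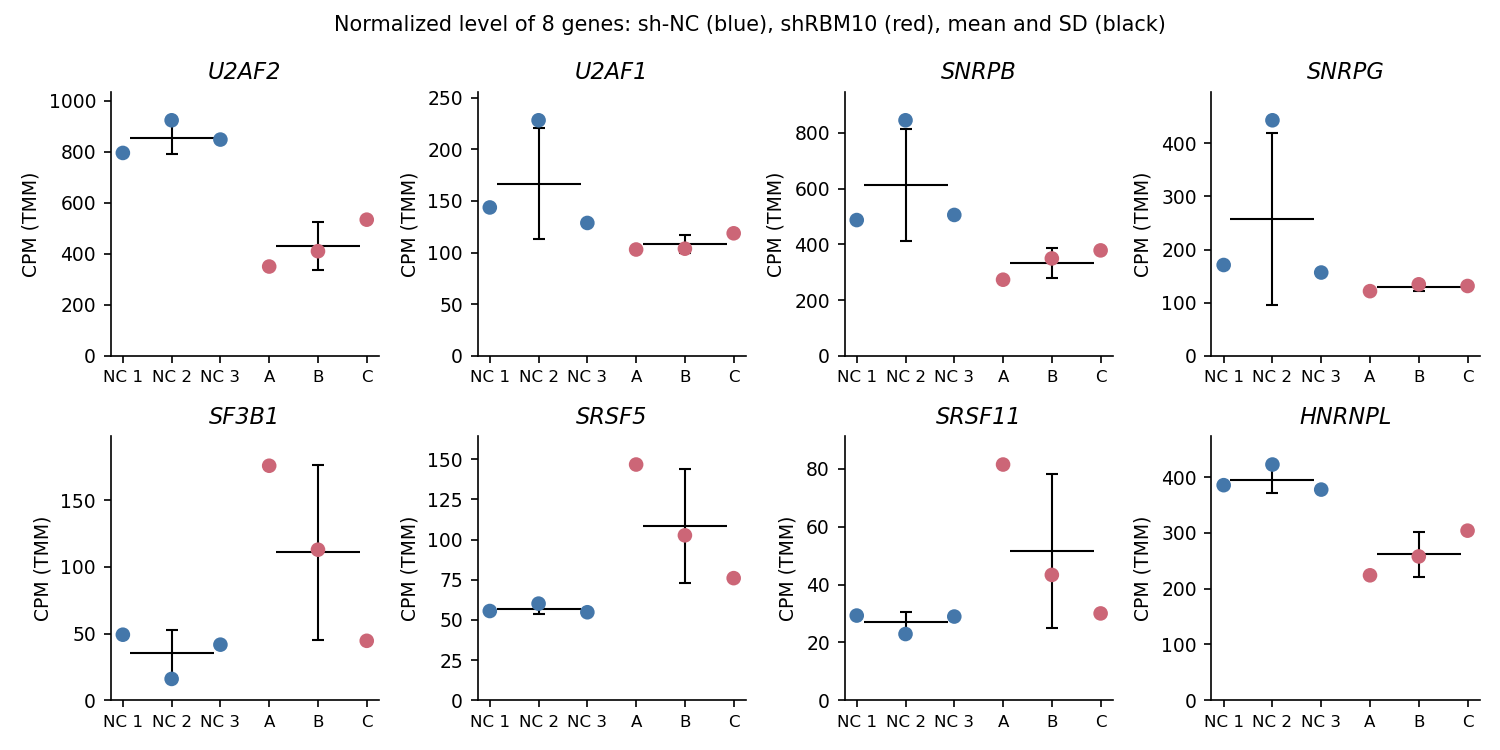
TMM-normalized CPM of 8 genes in each library (points), with the mean and SD of the group in black (n = 3). U2AF2 and HNRNPL are apart in all libraries, while SF3B1 in library C overlaps the controls, and U2AF1, SNRPB and SNRPG are high in sh-NC replicate 2.

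Of the hnRNPs, 14 of 21 tested genes had positive fold changes. HNRNPL, a CA-repeat binding splicing regulator, measured 385, 422 and 377 CPM in sh-NC and 224, 258 and 304 CPM in shRBM10. HNRNPAB measured 352 to 374 CPM in sh-NC and 233 to 270 CPM in shRBM10. Neither HNRNPL nor HNRNPAB overlapped between groups, with log2 fold changes of -0.59 ± 0.23 and -0.51 ± 0.21 (SE) and unadjusted p of 0.027 and 0.039. HNRNPH2 measured 36.8, 11.8 and 37.1 CPM in sh-NC and 95.1, 69.04 and 46.5 CPM in shRBM10, a log2 fold change of 1.29 ± 0.43 (SE) that was 0.84 without sh-NC replicate 2. HNRNPDL was higher at an unadjusted p of 0.043 (83.2 to 107 CPM against 105 to 172 CPM), with overlapping groups. HNRNPC, which binds uridine tracts, measured 1069, 2749 and 1008 CPM in sh-NC and 926, 892 and 851 CPM in shRBM10. Its unadjusted p was 0.060, and its log2 fold change moved from -0.85 to -0.31 without sh-NC replicate 2.

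HNRNPA1, HNRNPA2B1, HNRNPA3, HNRNPD, HNRNPH1, HNRNPK, HNRNPM and HNRNPU did not reach an unadjusted p of 0.05. HNRNPA1 measured 736, 585 and 677 CPM in sh-NC and 1250, 968 and 574 CPM in shRBM10, so library C was the lowest of all 6. HNRNPA2B1 measured 234, 153 and 231 CPM in sh-NC and 445, 335 and 198 CPM in shRBM10, with library C inside the control range. HNRNPA3 was laid out alike, at 259, 181 and 249 CPM against 445, 346 and 241 CPM. The log2 fold changes were 0.48 for HNRNPA1, 0.66 for HNRNPA2B1, 0.61 for HNRNPU, 0.39 for HNRNPH1, 0.26 for HNRNPK, 0.11 for HNRNPD and -0.005 for HNRNPM. HNRNPA1 shares sequence with HNRNPA1L2, and the counts of both genes are partly estimated.

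Of the 13 PRPF genes, PRPF18 and PRPF4B were higher at an unadjusted p under 0.05. PRPF18, a second-step splicing factor, measured 4.99, 2.68 and 3.73 CPM in sh-NC and 12.1, 8.66 and 4.91 CPM in shRBM10. PRPF4B, a kinase of the tri-snRNP, measured 18.8, 11.6 and 17.7 CPM in sh-NC and 59.3, 36.9 and 16.9 CPM in shRBM10. In both genes library C lay within the control range, and the log2 fold changes were 1.16 ± 0.39 and 1.23 ± 0.42 (SE). Without library A they were 0.83 and 0.74, and with the GC trend removed PRPF4B was at 0.56 with an unadjusted p of 0.074. PRPF8, the U5 protein at the core of the catalytic site, measured 567, 340 and 579 CPM in sh-NC and 329, 358 and 496 CPM in shRBM10. Its log2 fold change was -0.33, and -0.62 without sh-NC replicate 2. PRPF19, a ubiquitin ligase of the catalytic complex, measured 314, 382 and 320 CPM in sh-NC and 213, 235 and 277 CPM in shRBM10, groups that did not overlap, with an unadjusted p of 0.059. PRPF38B had a log2 fold change of 0.77 and an unadjusted p of 0.077.

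Fold change varied with the base composition of the genes. GC content was taken as the median over the protein-coding GENCODE 29 transcripts of a gene. Over the 69 genes, log2 fold change and GC content had a Pearson r of -0.50 (Spearman rho -0.49), a description over genes that share the same 6 libraries. Over 12570 genes of the whole table r was -0.57. Among the splicing genes with GC above their median of 47.5%, 6 of 34 had positive fold changes and their median was -0.34. Among those at or below it, 23 of 35 had positive fold changes and the median was 0.35. Against the mean of sh-NC replicates 1 and 3, the r with GC was -0.66 in library A, -0.61 in library B and -0.12 in library C. Whether base composition has a part in the differences named above was not tested.

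**Figure D3:**
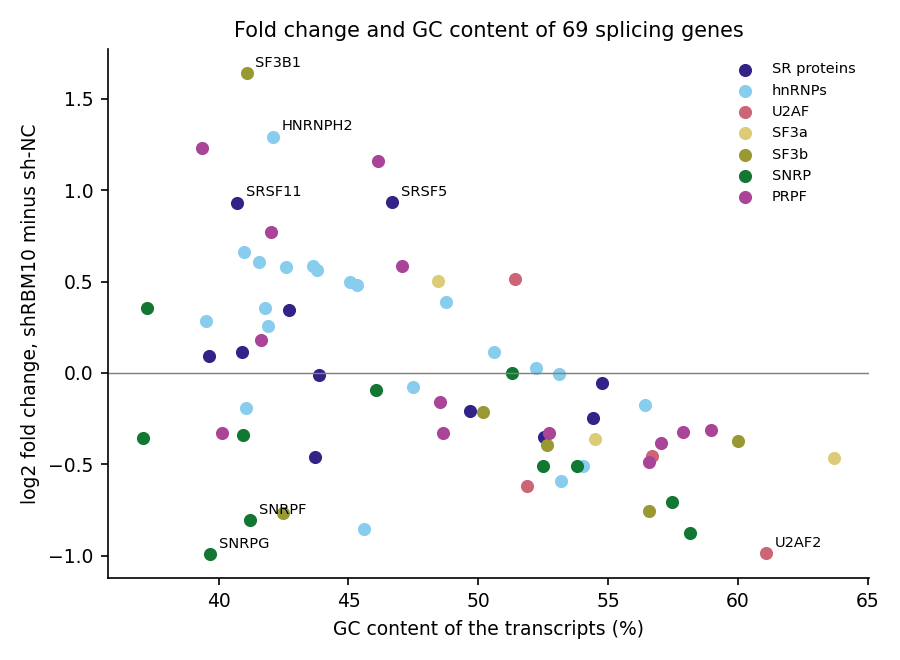
Log2 fold change (shRBM10 minus sh-NC, vertical axis) of the 69 tested genes against the GC content of their transcripts in percent (horizontal axis), with colours for families. Genes of lower GC content are mostly above 0, and SNRPF and SNRPG are low-GC genes below 0.

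With the GC trend removed, 3 splicing genes were higher at an unadjusted p under 0.05 (12.3% of all genes) and 13 were lower (6.36% of all genes). The 3 higher genes, PRPF18, SF3B1 and SRSF5, were among the 7 of the fit without this step, and 5 of its 8 lower genes were among the 13. U2AF2 then had a log2 fold change of -0.59 and SRSF5 of 0.72. SRSF11 was at 0.33 with an unadjusted p of 0.18, and SF3B1 at 1.05. Among the SNRP genes the log2 fold change was -0.49 for SNRPB, -0.37 for SNRPA, -1.30 for SNRPF and -1.59 for SNRPG. HNRNPL was at -0.38, HNRNPAB at -0.26, HNRNPH2 at 0.81 and HNRNPDL at 0.09. Without sh-NC replicate 2, 5 splicing genes were higher (11.6% of all genes) and 15 were lower (12.7% of all genes), and all 8 lower genes were among these 15. Without library A only 1 gene was higher (SRSF5, 5.64% of all genes) and 2 were lower (SNRPF and U2AF2, 3.15% of all genes). Without library B, 6 were higher (7.95% of all genes) and 3 lower (3.01% of all genes), and without library C, 14 were higher (20.3% of all genes) and 12 lower (15.9% of all genes). With both the GC and length trends removed, 2 were higher (14.8% of all genes) and 15 lower (7.92% of all genes).

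Transcript make-up was compared in 48 splicing genes with at least 2 tested transcripts. None had a Simes adjusted p under 0.05 in edgeR's test of transcript usage, where 0.0958% of 8348 genes did. In edgeR's test, 2 genes, or 4.17% of the 48, had an unadjusted Simes p under 0.05, beside 2.78% of all genes. They were SRSF2 (0.015, adjusted p = 0.84) and SRSF1 (0.018, adjusted p = 0.90). Those that followed included HNRNPA1L2, HNRNPA3, HNRNPLL, PRPF38B, PRPF3, HNRNPH3 and PRPF4, with p from 0.39 to 0.77. No non-coding RefSeq transcript is among the transcripts analysed, so poison-exon forms annotated as non-coding were not analysed here.

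In SRSF1 the transcript with a higher share in shRBM10 than in sh-NC was NM_001078166. It keeps the intron at chr17:58005601-58005800 (GRCh38, minus strand) that NM_006924 removes. It also ends further 3′, so its reads need not come from the intron alone. The sequences below show where the reading frames part. They run from the last 15 bases of exon 3, in lower case, into the next 54 bases of each transcript, in capitals, and come from GENCODE 29 transcripts. In the intron-keeping form the capitals end with the in-frame stop codon at chr17:58005747-58005749.
NM_006924: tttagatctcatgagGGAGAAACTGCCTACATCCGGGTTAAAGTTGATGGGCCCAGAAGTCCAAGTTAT
NM_001078166: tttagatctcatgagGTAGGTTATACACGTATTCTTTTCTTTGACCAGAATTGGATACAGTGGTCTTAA

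The intron-keeping SRSF1 transcript had estimated counts of 37, 43 and 119 in sh-NC and of 400, 147 and 104 in shRBM10. Its share of SRSF1 counts was 1.10%, 1.62% and 3.31% in sh-NC (2.01% ± 1.16, SD, n = 3) and 11.4%, 5.24% and 4.36% in shRBM10 (6.99% ± 3.82, SD, n = 3). The shares did not overlap, and the two-sided exact permutation p was 0.10, the smallest that 3 against 3 allows. Without library A the difference of 4.98 percentage points became 2.79. In SRSF2, the transcript NM_003016 keeps a segment of the 3′ UTR (chr17:76735159-76736153) that another transcript splices out. Its share was 2.28%, 1.42% and 4.02% in sh-NC and 24.6%, 7.22% and 3.95% in shRBM10, so library C lay just below sh-NC replicate 3. The exact permutation p was 0.20, and the difference of 9.36 percentage points became 3.01 without library A.

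Such shares could be compared in 5 splicing genes and in 379 genes of the whole table. In HNRNPM, the share of NM_005968, which keeps a segment of 117 bases, was 64.7%, 65.4% and 67.2% in sh-NC, against 71.5%, 70.7% and 75.0% in shRBM10. These shares were apart, with an exact permutation p of 0.10. Thus 2 of the 5, SRSF1 and HNRNPM, were higher without overlap, beside 8.18% of the 379 genes. The HNRNPM share covers only the 2 placed transcripts of the gene. In edgeR's test of transcript usage over 7 transcripts, HNRNPM had a Simes p of 0.82. SF3B1 and HNRNPLL had overlapping shares.

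**Figure D4:**
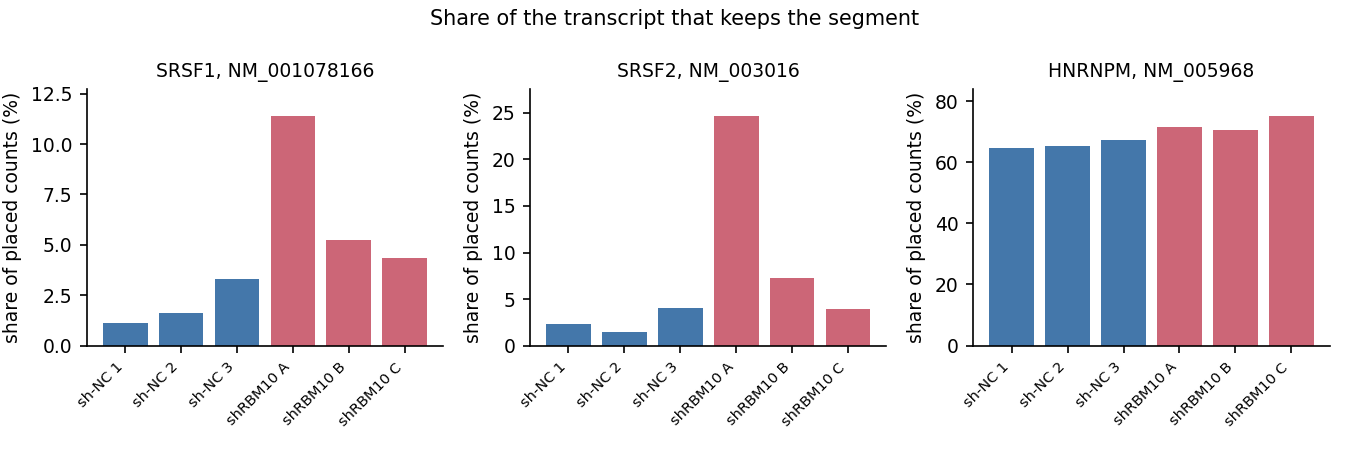
Share, in percent of the counts of the placed transcripts of a gene (vertical axis), of the transcript that keeps a segment spliced out in another, for SRSF1, SRSF2 and HNRNPM in each library (sh-NC blue, shRBM10 red). Library A is highest for SRSF1 and SRSF2, at 11.4% and 24.6%.

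Other genes of the pathway were described from lists, which were chosen with earlier results of these data known. Of 52 other spliceosome genes tested, 15 were higher and 10 lower at an unadjusted p under 0.05, which is 28.8% and 19.2% of the list beside 15.7% and 8.6% of all genes. Without library A the counts were 5 and 2, and with the GC trend removed 5 and 7. The median log2 fold change of the list was -0.18. The 3 of smallest p that were higher were CDC5L (1.33), BCAS2 (0.87) and SYF2 (0.83), all parts of the catalytic complexes. In CDC5L, library C lay within the control range. With the GC trend removed these 3 genes were at 0.63, 0.26 and 0.30. The 3 of smallest p that were lower were PPIH (-1.29), PHF5A (-1.12), a partner of SF3B1, and LSM7 (-0.84). All 3 lower genes were highest in sh-NC replicate 2, and without it they were at -0.78, -0.59 and -0.48. The adjusted p of the genes named from this list, higher and lower, was 0.15 to 0.17 in edgeR. Of 21 other splicing regulators, SYNCRIP (0.86) and MBNL2 (1.24) were higher at an unadjusted p under 0.05. Of 8 kinases of SR proteins, SRPK1 (1.22) and SRPK2 (0.95) were higher, with groups apart in both. Of 15 genes of nonsense-mediated decay, SMG9 (-0.54) was lower.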

How the data were processed

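RNA from PC9 cells with sh-NC or shRBM10 (3 libraries each) was sequenced by BGI-Tech. The authors deposited estimated counts and other measures per gene and per RefSeq transcript, and the submitters' processing notes name the build hg38; the aligner and counter are not given in the sources used here. Of the deposited estimated counts per gene, 87.5% are whole, and 16 of the 71 genes have one that is not. The authors' mean TPM served only to rank genes. The 18 other per-library columns and the 6 (gene) or 8 (transcript) columns of group means were not used.

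Counts were rounded, filtered by filterByExpr, normalized by TMM and tested with edgeR 4.0.16 quasi-likelihood fits (limma 3.58.1, R 4.3.3), with Benjamini-Hochberg adjustment over all genes. CPM are TMM-scaled. DESeq2 1.42.0 and limma-voom were alternatives. Transcript usage was tested with diffSpliceDGE. Scripts were tested on simulated data. The genes and lists were chosen with earlier results of these data known. Genes were named by family, by fixed symbols and by the 10 smallest p in each direction, and single features outside that rule (the HNRNPM transcript, SF3B5, SF3B6, SNRPD2, SNRPD3, HNRNPCL4, SNRPN) were chosen after their values were seen. A few items are not reported here. GC content was found for 99.6% of genes tested.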

Additional observations from a re-analysis of the deposited data

How the results depend on the processing

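No splicing gene was called in any edgeR or limma-voom fit, while DESeq2 called 2. RBM10 kept its direction in all fits, and passed both limits in DESeq2 (-1.26, adjusted p = 0.0015); leaving out 1 library gave -1.43 to -1.17, and it passed without sh-NC replicate 2 (-1.42, adjusted p = 0.049). Leaving out 1 library gave 1 to 14 genes higher and 2 to 15 lower at an unadjusted p under 0.05: without library A these were 1 and 2, without library B 6 and 3, without library C 14 and 12, and without sh-NC replicate 2 they were 5 and 15. Removing the GC trend gave 3 higher and 13 lower, and removing the GC and length trends 2 higher and 15 lower. The median log2 fold change moved to -0.0015 with library size scaling, and lay between -0.18 and -0.12 with 1 library left out. The cause of these shifts was not tested. Of the 69 genes, 46 kept their direction under all 14 alternatives. No gene had shifted transcript usage under any of 8 alternatives. No paired analysis was possible because the columns of shRBM10 libraries B and C carry no replicate number that matches a sample title. Shares of non-coding transcripts were not run, since 0 such transcripts were analysed. Counts and 3 libraries per group limit all of these results.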
